A study of Mus musculus with 27 samples.

Results

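Liver transcripts of 6 male *Kdm5b* fl/fl mice that had received an AAV-CMV-Cre vector (KO males) were compared between mice still on the Western diet with alcohol (WDA) and mice taken off it (resolution, Res). The 3 WDA mice, 11_16, 11_17 and 11_18, carry the label AAV8-CMV-Cre with 8 weeks of WDA. The 3 Res mice, 12_5, 12_6 and 12_11, carry the label AAV-CMV-Cre with 16 weeks of WDA and 4 weeks of resolution. They were chosen by sex, vector and stage from the labels, 6 of the 27 liver libraries of the series, and each library is 1 mouse. The CMV promoter drives Cre in liver cells without choosing a cell type. All WDA mice bear the number of experiment 11 and all Res mice that of experiment 12, and the labels give the Res mice a longer time on WDA, so the end of feeding, the experiment and the length of feeding cannot be told apart. The methods also place the vector at the start of feeding in the WDA mice and at alcohol cessation in the Res mice. The paper further describes a liver biopsy before resolution and chow in place of the Western diet during it. Neither can be told apart from stage here. No age is given in the labels of these mice. Males that received the control vector (WT males) and females that received AAV-CMV-Cre (KO females), 3 WDA and 3 Res mice each, are set beside them.

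KDM5B is a histone demethylase that removes methyl groups from lysine 4 of histone H3, a mark of active promoters. A liver on a fatty diet with alcohol stores triglyceride, makes monounsaturated fat through stearoyl-CoA desaturase and handles surplus sterol through the liver X receptors (LXR), while the SREBP2 factor turns on cholesterol synthesis when sterol is low. Many of the same enzymes follow the time of day, because the clock factors CLOCK and ARNTL bind E-box letters in the promoters of their targets, and DBP, TEF and HLF bind D-box letters.

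The promoters below are those of clock and sterol genes whose windows hold the letters that those factors are known to read. They are shown for those letters and not for the size of a difference. The sequences are those of RefSeq on GRCm38.p6, upstream of the annotated start, 5′ to 3′ along the gene, and the capitals mark the match.
Cry1, E-box, chr10:85185055-85185174, minus strand: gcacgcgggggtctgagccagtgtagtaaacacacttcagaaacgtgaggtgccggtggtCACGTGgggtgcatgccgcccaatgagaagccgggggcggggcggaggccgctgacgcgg
Ciart, E-box, chr3:95882229-95882404, minus strand: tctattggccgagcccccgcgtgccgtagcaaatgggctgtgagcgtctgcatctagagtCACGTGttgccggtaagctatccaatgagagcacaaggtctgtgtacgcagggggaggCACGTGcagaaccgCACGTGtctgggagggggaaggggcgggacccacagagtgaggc
Bhlhe41, E-box, chr6:145865508-145865633, minus strand: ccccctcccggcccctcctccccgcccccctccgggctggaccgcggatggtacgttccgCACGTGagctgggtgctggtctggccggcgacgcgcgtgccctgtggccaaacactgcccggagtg
Per3, D-box, chr4:151044756-151044915, minus strand: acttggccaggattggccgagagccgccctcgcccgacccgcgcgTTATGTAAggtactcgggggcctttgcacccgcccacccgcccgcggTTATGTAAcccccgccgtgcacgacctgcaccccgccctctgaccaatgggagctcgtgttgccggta
Hmgcs1, sterol element, chr13:119690154-119690282, plus strand: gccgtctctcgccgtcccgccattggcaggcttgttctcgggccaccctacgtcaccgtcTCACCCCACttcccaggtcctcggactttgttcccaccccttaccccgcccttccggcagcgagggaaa

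The E-box was searched as CACGTG, the D-box as TTATGTAA or TTATGCAA and the sterol element as TCACCCCAC, on both strands and in a window of 250 bases before to 50 bases after the start. Counts are of genes with a window, and a gene with several windows was counted if any of them held a match. Genes with more windows thus had more places for a match. An E-box was in 2 of 11 core clock genes, 4 of 13 clock output genes and 11.6% of the 10188 tested genes with a window. A D-box was in 2 of 11 core clock genes, 0 of 13 clock output genes and 1.52% of all tested genes with a window. A sterol element was in 1 of 16 cholesterol synthesis genes and 0.726% of all. In *Cry1* the E-box begins at -60 from the start, and *Ciart* holds 3 E-boxes. No E-box, D-box or sterol element was found for *Dbp*, *Nr1d1*, *Nr1d2*, *Arntl*, *Cyp51* or *Idi1*. Not every listed gene had a window. Among the 24 genes named first below, an E-box was in 2 of the 11 higher genes with a window. It was in 4 of the 9 lower genes with a window (*Krt23*, *Maff*, *Midn* and *Erlin1*). A match is a description of the letters and not of a binding event.

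Summed counts ran from 14634602 to 19388251 per library, with the lowest in 12_5 and the highest in 12_6. Log2 CPM of 11_16 and 11_18 correlated at r = 0.983 across genes, while 11_17 correlated with these at 0.925 and 0.945. CPM (counts scaled by TMM to a common library size) were used for the values of each mouse, and they do not compare one gene with another because they are not divided by length. Of 10032 genes with a mean log2 CPM of at least 2, 500 were at least 2-fold above and 398 at least 2-fold below both other WDA mice in 11_17. In 12_5, 150 were above and 16 below both other Res mice. In 12_6, 36 were above and 146 below both other Res mice, so 12_5 was not the only Res mouse to stand apart. The remaining mice had at most 30 genes above and 97 below. Values without 12_5 and 11_17 are given as values without both. The 4 Y-linked genes on the list summed to 87.6 CPM in 12_5, the lowest of the 12 males of the series (87.6 to 157), against 0.35 to 2.11 in the females. Hepatocyte transcripts were at high levels in each mouse, with *Alb*, which encodes albumin, between 54820 and 86790 CPM.

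*Kdm5b* (chr1:134560178-134632878) was still detected in every mouse. It stood at 22.0, 21.6 and 20.6 CPM in the WDA mice and at 17.3, 7.94 and 12.9 CPM in the Res mice (mice in the order 11_16, 11_17, 11_18 and 12_5, 12_6, 12_11 here and below). The groups did not overlap, and the highest Res value was that of 12_5. The log2 fold change was -0.75 ± 0.27 (SE) and its edgeR adjusted p was 0.682, and it was -1.03 ± 0.25 without both. WT males had 21.7 to 23.1 CPM in WDA and 17.4 to 18.7 CPM in Res mice, and KO females 14.1 to 23.8 and 10.5 to 13 CPM. These counts cover the whole gene and do not isolate the floxed part, so they do not check the deletion. The other H3K4 demethylases on the list (*Kdm5a*, *Kdm5c*, *Kdm5d*, *Kdm1a* and *Kdm1b*) differed by at most 0.24 on the log2 scale in either direction.

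No gene differed between Res and WDA KO males at a Benjamini-Hochberg adjusted p of 0.05 in the quasi-likelihood F test of edgeR. Of 12747 genes, 0 passed (0%), the smallest adjusted p was 0.0574, and 819 had an unadjusted p under 0.05. Of these 410 (3.22%) were higher and 409 (3.21%) lower after resolution. The split was 166 higher and 451 lower with library totals as the only scaling, and 162 higher and 565 lower with limma on FPKM. The values of the 3 Res mice lay above those of the 3 WDA mice for 947 genes (7.43%) and below for 706 (5.54%). The exact permutation test of 3 against 3 mice cannot go below p = 0.1, so no single gene was tested that way. DESeq2 on the same libraries called 79 genes (0.62%), 39 higher and 40 lower, and in 78 of them the groups did not overlap. Without 12_5 and 11_17, edgeR called 5 of 12524 genes (0.0399%), *Scara5* higher and *Dbp*, *Cyp2a4*, *Scd1* and *Ppp1r3g* lower. The common biological coefficient of variation was 0.296, against 0.162 in WT males and 0.15 in KO females.

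**Figure D1:**
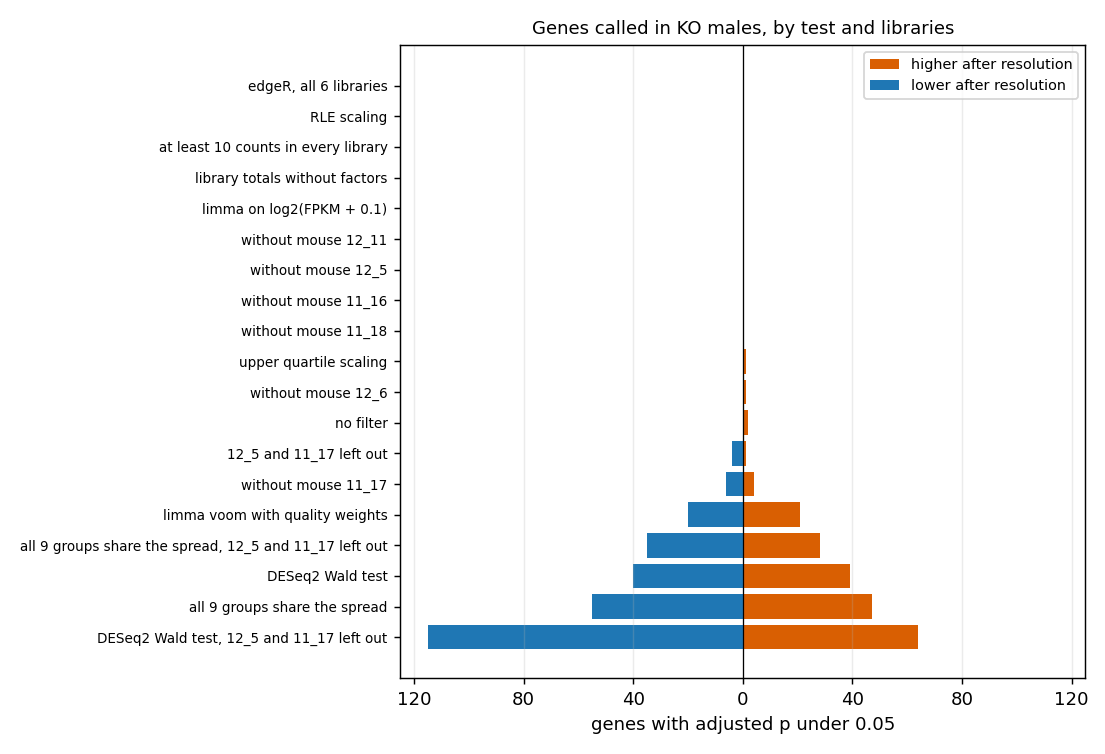
Genes with adjusted p under 0.05 in KO males, by test and by libraries used. The horizontal axis counts genes, with those higher after resolution to the right (orange) and those lower to the left (blue). The edgeR test on all 6 libraries called 0 genes and DESeq2 without 12_5 and 11_17 called 64 higher and 115 lower.

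The genes named first are the 12 in each direction with the smallest unadjusted p among genes with a mean log2 CPM of at least 2, no overlap between the groups and the same sign without 12_5 and 11_17. None passed the adjusted threshold in edgeR with all 6 libraries. *Scara5*, a scavenger receptor that takes up ferritin (chr14:65666403-65764826), was at 0.354, 0.707 and 0.304 CPM in WDA mice and at 12.6, 6.97 and 11.8 CPM in Res mice. It was under 1 CPM in each WDA mouse and well above that in each Res mouse, 12_5 included. Its log2 fold change was 4.45 ± 0.41 (edgeR adjusted p 0.0574), and 4.80 ± 0.43 (0.0272) without 12_5 and 11_17. Over the 17 alternatives that gave it a value, the adjusted p ran from 9.25e-17 to 0.409, and 8 of them were under 0.05. *Ces1b* (chr8:93056725-93080017), a liver carboxylesterase, was at 29.9, 27.6 and 33.5 CPM against 96.7, 110.4 and 87.5 CPM. Its log2 fold change was 1.70 ± 0.16 (adjusted p 0.0574), and 1.64 ± 0.20 without both. Neither outlying library stood apart for it.

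The other higher genes fell into sterol synthesis (*Cyp51*, *Idi1*), the clock (*Cry1*), the acute phase (*Orm2*, *Saa1*, *Saa2*) and 4 others. *Clpx*, the unfoldase of the mitochondrial ClpXP protease, was at 162, 215 and 150 CPM against 420, 451 and 570 CPM (log2 fold change 1.45 ± 0.24, and 1.71 ± 0.21 without both). *Fkbp5*, a co-chaperone induced by glucocorticoids, was at 31.6, 23.8 and 22.3 CPM against 60.1, 70.5 and 112 CPM (1.64 ± 0.27, and 1.76 ± 0.28 without both). *Npnt*, which encodes the matrix protein nephronectin, differed by 2.13 ± 0.35 and *Tspyl4* by 1.93 ± 0.34 on the log2 scale. Without both, *Npnt* stood at 2.01 ± 0.41 and *Tspyl4* at 1.56 ± 0.29. The edgeR adjusted p values of these 4 genes were 0.269 to 0.288.

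Among the lower genes, keratins formed one group. *Krt8* and *Krt18*, the keratin pair of hepatocytes, were at 259, 301 and 260 CPM against 111, 141 and 132 CPM, and at 239, 251 and 213 CPM against 107, 123 and 130 CPM. Their log2 fold changes were -1.09 ± 0.19 and -0.97 ± 0.17 (edgeR adjusted p 0.275 and 0.310), and -0.92 ± 0.18 and -0.84 ± 0.18 without both. *Krt23*, a keratin of the injured liver, was at 10.1, 9.65 and 11.8 CPM against 3.50, 2.54 and 3.45 CPM (-1.73 ± 0.22, adjusted p 0.184, and -1.86 ± 0.26 without both). *Aqp4*, a water channel, was at 24.6, 26.3 and 26.9 CPM against 5.28, 7.57 and 9.56 CPM (-1.79 ± 0.23, adjusted p 0.184, and -1.58 ± 0.20 without both). For these 4 genes 11_17 lay beside its group, unlike for *Epcam* and *Spp1* described below. The naming rule had required no overlap between the groups. *Krt23* is itself on the cholangiocyte and ductular list.

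*Lgals1*, which encodes the galectin of activated stromal and immune cells, differed by -1.29 ± 0.19. *Pparg*, the adipogenic nuclear receptor that is high in fatty livers, was at 19.3, 19.6 and 20.4 CPM against 9.76, 7.82 and 11.2 CPM (-1.04 ± 0.17, adjusted p 0.275, and -1.06 ± 0.22 without both). *Egln3*, a prolyl hydroxylase of the hypoxia pathway, differed by -1.17 ± 0.20, *Midn* by -1.12 ± 0.17 and *Erlin1*, which restrains SREBP activation in the endoplasmic reticulum, by -0.78 ± 0.14. *Maff*, a small Maf transcription factor, differed by -1.82 ± 0.28. Without both, *Lgals1* stood at -1.10 ± 0.20, *Egln3* at -1.33 ± 0.22, *Midn* at -1.27 ± 0.17, *Erlin1* at -0.73 ± 0.18 and *Maff* at -1.68 ± 0.34. The adjusted p of these genes lay between 0.226 and 0.323.

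**Figure D2:**
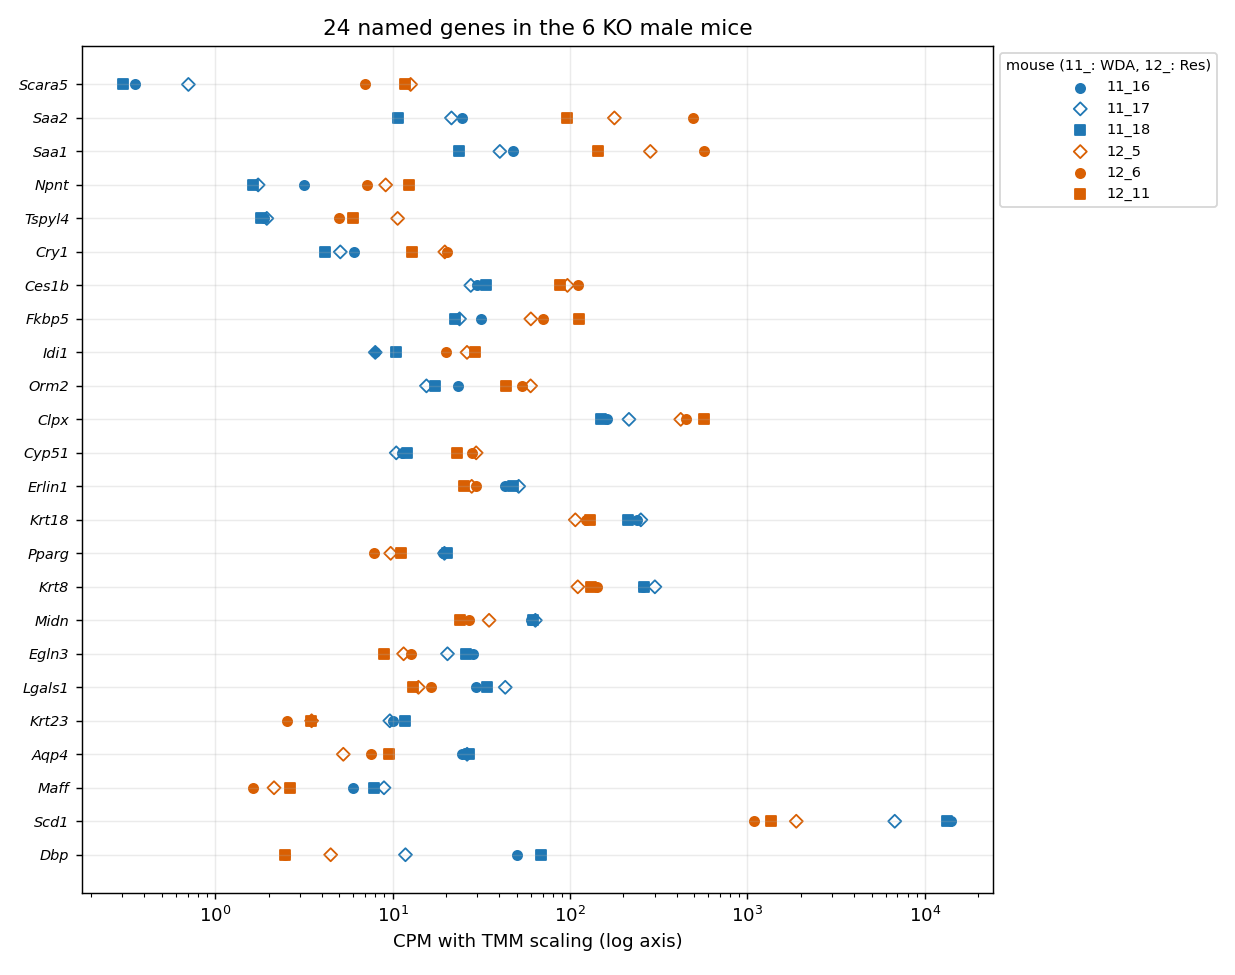
CPM with TMM scaling on a log axis for the 24 genes named by rule, 1 symbol per mouse, blue for WDA and orange for Res. Open diamonds are 11_17 and 12_5. The 2 colours do not overlap for any of these genes, as the rule required, and 11_17 lies nearest to the Res mice for *Dbp* and *Scd1*.

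Clock genes differed in both directions. *Dbp* (chr7:45705100-45710203), a D-box factor that peaks late in the day, was at 50.2, 11.8 and 68.4 CPM against 4.48, 2.48 and 2.48 CPM. The groups did not overlap, but 11_17 lay between its groupmates and the Res mice. Its log2 fold change was -3.78 ± 0.64 (adjusted p 0.275), and -4.58 ± 0.25 (adjusted p 0.00430) without 12_5 and 11_17. Over its 18 alternatives the adjusted p ran from 7.86e-46 to 0.9998, with 7 under 0.05. *Nr1d1*, which encodes the repressor REV-ERBα of the clock loop, was at 143, 54.1 and 103 CPM against 19.6, 27.5 and 9.04 CPM (-2.42 ± 0.48, adjusted p 0.406, and -2.75 ± 0.48 without both). *Nr1d2*, its paralog, was at 68.6, 41.7 and 70.5 CPM against 32.4, 26.9 and 19.6 CPM (-1.20 ± 0.26, and -1.58 ± 0.21 without both). In each of these 11_17 was the lowest of the WDA mice, and the groups did not overlap.

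*Arntl* and *Cry1* went the other way. *Arntl*, the positive partner of CLOCK that REV-ERBα represses, was at 9.37, 17.9 and 6.39 CPM against 27.7, 25 and 30.6 CPM (1.30 ± 0.35, and 1.82 ± 0.24 without 12_5 and 11_17). *Cry1*, a repressor that rises late in the cycle (chr10:85131700-85185054), was at 6.07, 5.08 and 4.14 CPM against 19.7, 20.2 and 12.8 CPM (1.78 ± 0.24, adjusted p 0.186, and 1.69 ± 0.30 without both). *Nfil3*, which opposes DBP at D-boxes, was at 29.1, 20.9 and 12.1 CPM against 35.8, 44.6 and 36.1 CPM (0.91 ± 0.30, and 0.98 ± 0.37 without both). These 3 genes did not overlap between the groups.

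Some other clock genes had larger differences once the outlying libraries were left out. *Ciart*, a repressor with 3 E-boxes in the window above, was at 4.30, 0.874 and 5.30 CPM against 4.72, 0.727 and 0.691 CPM. The value in 11_17 resembled 12_6 and 12_11, and the value in 12_5 resembled 11_16 and 11_18. The log2 fold change was -0.76 ± 0.89 with 6 mice and -2.75 ± 0.36 without the 2. *Bhlhe41* moved from -2.08 ± 0.68 to -3.51 ± 0.38, *Bhlhe40* from -1.25 ± 0.39 to -1.93 ± 0.27, *Per3* from -1.08 ± 0.50 to -1.84 ± 0.44 and *Wee1* from -0.97 ± 0.31 to -1.45 ± 0.25.

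Of 14 core clock genes tested, 2 were higher and 2 lower at an unadjusted p under 0.05. Of 15 clock output genes, 2 were higher and 4 lower, against 3.22% and 3.21% of all genes. The median of the output genes was -0.64 on the log2 scale, and -1.18 without 12_5 and 11_17, against -0.01 and 0.01 over all genes tested. DESeq2 called 3 core genes and 1 output gene. The time of day at which livers were taken was not given in the sources used here, and its part in these differences was not tested.

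**Figure D3:**
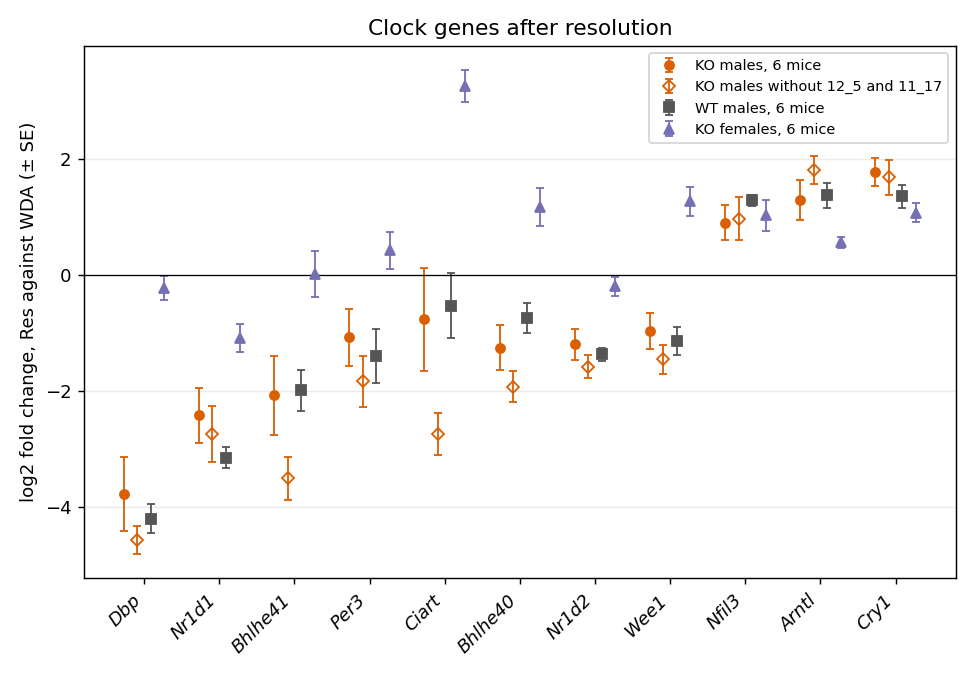
Log2 fold change with SE, Res against WDA, of 11 clock genes in KO males (6 mice, filled orange, and without 12_5 and 11_17, open orange), WT males (squares) and KO females (triangles). KO and WT males lie on the same side of 0 for all 11 genes, whereas KO females lie above 0 for *Ciart*, *Bhlhe40* and *Wee1*, which lie below 0 in both groups of males.

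Cholesterol synthesis genes past an unadjusted p of 0.05 were higher after resolution. Of 24 genes on the list, 10 were higher and 0 lower at an unadjusted p under 0.05, and 9 did not overlap, against 3.22% and 7.43% of all genes. The median log2 fold change was 0.47, and 0.40 without 12_5 and 11_17. *Cyp51*, lanosterol demethylase (chr5:4080674-4104697), was at 11.4, 10.5 and 12.1 CPM against 29.6, 28 and 23.0 CPM (1.25 ± 0.16, adjusted p 0.184, and 1.12 ± 0.19 without both). *Idi1*, isopentenyl diphosphate isomerase, was at 7.96, 7.99 and 10.4 CPM against 26.3, 20.1 and 29.2 CPM (1.52 ± 0.20, adjusted p 0.186, and 1.43 ± 0.25 without both). Both enzymes were named by a rule that required no overlap, and neither 11_17 nor 12_5 lay away from its group. DESeq2 called these and *Hmgcs1*, HMG-CoA synthase, which differed by 0.67 ± 0.16 and carries the sterol element printed above.

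*Fdps* was higher by 0.84 ± 0.17, *Tm7sf2* by 1.24 ± 0.37 and *Hsd17b7* by 0.83 ± 0.27 on the log2 scale, all 3 enzymes of the same route. Without both they stood at 0.69 ± 0.21, 1.02 ± 0.21 and 0.56 ± 0.24, and *Hmgcs1* at 0.60 ± 0.18. *Insig1*, which retains the SREBP complex, was at 34.6, 27.4 and 39.3 CPM against 58.4, 44.7 and 23.0 CPM. Its levels overlapped between the groups.

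LXR targets and sterol transporters past an unadjusted p of 0.05 were lower. Of 19 genes, 0 were higher and 6 lower at an unadjusted p under 0.05, and the same number lay below without overlap (3.21% and 5.54% of all genes). The median log2 fold change was -0.405, and -0.445 without 12_5 and 11_17. *Scd1* (chr19:44394450-44407709), the desaturase that makes oleate, was at 14060, 6756 and 13350 CPM against 1883, 1092 and 1353 CPM. The WDA mouse 11_17 was the lowest of its group yet above each Res mouse. The log2 fold change was -2.98 ± 0.44 (adjusted p 0.226), and -3.49 ± 0.26 (adjusted p 0.0134) without the 2 libraries. Over 18 alternatives the adjusted p ran from 8.77e-54 to 0.9998, with 7 under 0.05.

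*Abcg5* and *Abcg8* form the transporter that moves sterol into bile. *Abcg5* was at 329, 127 and 269 CPM against 88.2, 72.8 and 45.1 CPM (-1.81 ± 0.40, and -2.34 ± 0.27 without both). *Abcg8* was at 253, 94.2 and 226 CPM against 96.6, 91.9 and 54.4 CPM (-1.24 ± 0.39, and -1.71 ± 0.27 without both), where 11_17 overlapped the Res mice. *Apoc2*, the cofactor of lipoprotein lipase, differed by -0.98 ± 0.24 and *Lpcat3*, a phospholipid acyltransferase, by -0.55 ± 0.19, and without both by -0.76 ± 0.21 and -0.75 ± 0.18. *Abca1*, the cholesterol exporter, was at 238, 250 and 238 CPM against 184, 179 and 231 CPM, a difference that did not pass an unadjusted p of 0.05. The receptors themselves, *Nr1h3* and *Nr1h2*, overlapped between the groups.

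Lipogenic genes split. Of 19 genes, 2 were higher and 3 lower at an unadjusted p under 0.05, with 6 below without overlap, against 3.22%, 3.21% and 5.54% of all genes. *Scd1*, counted among the LXR genes above, is also 1 of these 3 lower genes. *Elovl6*, the elongase that acts before SCD1, was at 120, 51.2 and 104 CPM against 36.5, 37.7 and 43.5 CPM (-1.23 ± 0.30, and -1.46 ± 0.18 without both). *Fads2*, a desaturase of polyunsaturated fat, was at 854, 988 and 873 CPM against 505, 573 and 472 CPM (-0.81 ± 0.21, and -0.72 ± 0.21 without both). The 2 higher genes were those of fatty acid synthase and of an acetyl-CoA carboxylase. *Fasn* was at 64.9, 62.3 and 78.7 CPM against 98.1, 114 and 73.9 CPM, with overlap (0.47 ± 0.20). It ran from 0.33 to 0.63 on leaving out 1 library. *Acacb* was higher by 1.12 ± 0.41, and by 1.06 ± 0.28 without both.

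*Srebf1*, the lipogenic SREBP, differed within the Res group. It was at 90.8, 137 and 114 CPM in WDA mice and at 97.9 CPM in 12_5, against 30 and 18.5 CPM in 12_6 and 12_11. Its log2 fold change was -1.22 ± 0.56, and -2.08 ± 0.27 without 12_5 and 11_17. *Cyp4a14*, a fatty acid hydroxylase induced through PPARα, was at 2945, 2509 and 3675 CPM against 5133, 7784 and 11380 CPM (1.41 ± 0.40, and 1.53 ± 0.28 without both). *Pdk4*, which spares glucose in fasting, was higher by 1.30 ± 0.41 and *Plin5*, a lipid droplet protein of oxidative cells, by 0.84 ± 0.24. Without both, *Pdk4* stood at 1.45 ± 0.24 and *Plin5* at 0.87 ± 0.24. On the PPARα list 2 of 24 genes were higher and 1 lower at an unadjusted p under 0.05, the latter near the 3.21% of all genes that were lower (3.22% higher). *Apoa4*, an apolipoprotein that is high in fatty livers, was at 4886, 8783 and 5029 CPM against 814, 1277 and 3310 CPM (-1.79 ± 0.57, and -1.11 ± 0.42 without both).

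A few acute phase genes were higher, and none passed the adjusted threshold in edgeR. Of 24, 6 were higher and 0 lower at an unadjusted p under 0.05, all 6 without overlap (3.22% and 7.43% of all genes), and DESeq2 called 4. *Saa1* (chr7:46740497-46743181), which encodes serum amyloid A, was at 47.8, 40.2 and 23.7 CPM against 284, 566 and 144 CPM (3.15 ± 0.53, adjusted p 0.275, and 3.32 ± 0.66 without both). *Saa2* was at 24.5, 21.5 and 10.7 CPM against 178, 494 and 96.5 CPM (3.76 ± 0.65, and 4.07 ± 0.79 without both). These neighbouring genes are near copies and may share reads. The highest value of both was in 12_6, not in 12_5, and 12_5 lay between the other Res mice. The median of the whole list was 0.45, with 20 log2 fold changes above and 4 below 0, and 0.64 without 12_5 and 11_17. With these libraries left out, 14 genes of the list lay above and 2 below without overlap. Over all 12747 genes tested, 2647 lay above and 2706 below by the same measure.

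*Orm2*, an orosomucoid, was at 23.3, 15.5 and 17.4 CPM against 60, 53.3 and 43.7 CPM (1.48 ± 0.21, adjusted p 0.186, and 1.26 ± 0.21 without both). *Saa3* was higher by 1.60 ± 0.32, *Hp*, which encodes haptoglobin, by 0.85 ± 0.31, and *Lbp*, the lipopolysaccharide-binding protein, by 0.58 ± 0.22. Without both these 3 stood at 1.81 ± 0.32, 1.01 ± 0.30 and 0.62 ± 0.24. Neutrophil markers could not be followed in depth, since 6 of 13 passed the filter and *Ly6g* had at most 1 count in any of these mice. The 6 all had log2 fold changes above 0, and none was called in edgeR. Their median was 0.43, and 1.05 without both, against -0.01 and 0.01 over all genes tested. These 6 genes summed to only 7.01, 20.05 and 7.3 CPM against 15.2, 11.3 and 16.2 CPM. The WDA mouse 11_17 was the highest, and the median of 1.05 leaves it out.

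Of the metallothioneins and zinc transporters, 4 of 8 were higher and 1 lower at an unadjusted p under 0.05, and as many lay apart without overlap. Over all genes these shares were 3.22% and 3.21%, and 7.43% and 5.54% without overlap. *Mt1* (chr8:94178883-94180327), a metal-binding protein induced by zinc and glucocorticoids, was at 76.1, 129 and 42.7 CPM against 515, 317 and 327 CPM (2.23 ± 0.42, adjusted p 0.349, and 2.44 ± 0.29 without both). *Mt2* was at 30.5, 50.3 and 9.25 CPM against 333, 88.2 and 257 CPM (2.91 ± 0.68, and 3.12 ± 0.66 without both). *Slc30a10*, a manganese exporter of the zinc transporter family, was at 30.1, 18.4 and 23.3 CPM against 45.7, 61.2 and 51.9 CPM (1.15 ± 0.21), and *Slc30a1*, the zinc exporter, was higher by 0.68 ± 0.17. Without both, *Slc30a10* stood at 1.09 ± 0.20 and *Slc30a1* at 0.49 ± 0.18. Each of the 4 genes was higher in all 3 Res mice than in any WDA mouse.

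Of 19 genes of iron handling, 1 was higher and 4 lower at an unadjusted p under 0.05, against 3.22% and 3.21% of all genes. The lower genes, *Id1*, *Id3*, *Smad7* and *Atoh8*, are targets of bone morphogenetic protein signaling. *Atoh8* differed by -0.60 ± 0.15 and *Id3* by -0.69 ± 0.23, while *Slc40a1*, the iron exporter ferroportin, was at 115, 85.8 and 114 CPM against 150, 145 and 158 CPM (0.52 ± 0.18). Without both, these stood at -0.66 ± 0.19, -0.67 ± 0.24 and 0.40 ± 0.17. *Hamp2* was at 78.3 CPM in 12_5 against 3.57 to 10.2 CPM in the other 5 mice.

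Stress genes were lower in part. Of 26 genes of endoplasmic reticulum stress, 0 were higher and 4 lower at an unadjusted p under 0.05 and as many lay below without overlap, against 3.21% and 5.54% of all genes. *Trib3*, a pseudokinase downstream of ATF4 and CHOP, was at 50.9, 22.8 and 21.2 CPM against 7, 10.1 and 7.20 CPM (-1.97 ± 0.37, adjusted p 0.343, and -2.06 ± 0.41 without both). *Chac1*, which degrades glutathione, was at 12.2, 3.66 and 7.06 CPM against 2.64, 2.06 and 0.864 CPM (-2.04 ± 0.54, and -2.72 ± 0.46 without both). *Ddit3*, which encodes CHOP, differed by -0.83 ± 0.28, and ran from -1.01 to -0.60 on leaving out 1 library. *Herpud1*, of the degradation of misfolded proteins, was at 538, 158 and 441 CPM against 217, 354 and 130 CPM and overlapped between the groups.

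Of 27 immediate early and stress factors, 1 was higher and 4 lower at an unadjusted p under 0.05, against 3.22% and 3.21% of all genes. *Jund* differed by -0.77 ± 0.22 and *Junb* by -0.81 ± 0.23. *Nr4a1* was at 21.6, 9.86 and 12.4 CPM against 10.4, 2.18 and 2.71 CPM, and moved from -1.52 ± 0.60 to -2.79 ± 0.33 without 12_5 and 11_17. Of 23 cytosolic heat shock genes, 1 (*Fkbp5*) was higher and 2 (*Hspa1a* and *Hspa1b*) lower by the same measure, and 19 of the 23 log2 fold changes were below 0. *Hspa1b*, the inducible HSP70, was at 22.7, 14.8 and 64.6 CPM against 4.11, 15.4 and 7.31 CPM (-1.92 ± 0.64, and -1.94 ± 0.54 without both), with overlap between 11_17 and 12_6.

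Other liver programs gave single genes. *Cyp2b10*, the sentinel target of the xenobiotic receptor CAR, was at 4.42, 4.74 and 3.77 CPM against 41.9, 8.48 and 33.5 CPM (2.69 ± 0.53, adjusted p 0.406, and 2.36 ± 0.59 without both). *Socs2*, a feedback inhibitor of growth hormone signaling, was at 12.1, 12.1 and 8.16 CPM against 35.8, 13.8 and 46.5 CPM (1.57 ± 0.42, and 1.57 ± 0.52 without both). *Mup20*, the pheromone darcin, was at 2296, 938 and 2109 CPM against 4172, 4913 and 4986 CPM (1.40 ± 0.40, and 1.17 ± 0.22 without both). *Ppp1r3g*, a glycogen-targeting phosphatase subunit, was at 50.5, 3.50 and 24.9 CPM against 1.60, 0.545 and 1.21 CPM (-4.54 ± 0.94), and it was -5.40 ± 0.48 (edgeR adjusted p 0.0272) without 12_5 and 11_17. Over 17 alternatives its adjusted p ran from 8.70e-31 to 0.9998, with 6 under 0.05.

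Some differences rested on 11_17 and 12_5. In whole liver, fewer cells of a type and less RNA per cell cannot be told apart. Cholangiocyte and ductular genes had a median log2 fold change of -1.03 over 23 genes, scar-associated macrophage genes -0.80 over 19, and matrix and stellate genes -0.53 over 38. Without 11_17 the medians were 0.39, 0.36 and 0.28, and without 12_5 they were -2.31, -1.37 and -0.88. Without both they were -0.77, -0.14 and -0.10. Of the 3 lists, 0, 0 and 0 genes were higher and 1 (*Krt23*), 0 and 0 lower at an unadjusted p under 0.05, below or near the 3.22% and 3.21% of all genes.

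*Epcam*, a cholangiocyte surface protein, was at 1.12, 20.7 and 4.69 CPM against 9.02, 1.21 and 1.5 CPM. *Spp1*, osteopontin, was at 20.4, 471 and 94.0 CPM against 170, 25.1 and 27.9 CPM. *Gpnmb*, a glycoprotein of lipid-associated macrophages, was at 2.53, 151 and 25.6 CPM against 42.2, 9.87 and 30 CPM. In all 3 the WDA mouse 11_17 was the highest of the 6, and 12_5 was the highest of the Res mice.

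*Col1a1* and *Col3a1*, the fibrillar collagens of scar, were at 4.83, 77 and 17.4 CPM against 15.5, 3.45 and 12.3 CPM, and at 12.8, 194 and 49.2 CPM against 31.4, 12.1 and 26.9 CPM. Their log2 fold changes of -1.67 ± 0.93 and -1.86 ± 0.86 became -0.50 ± 0.69 and -0.67 ± 0.61 without 12_5 and 11_17. *Trem2* and *Mmp12*, both of macrophages in scar, went from -1.48 ± 0.97 and -1.05 ± 0.92 to 0.03 ± 0.75 and 0.78 ± 0.66. *Ccnd1*, cyclin D1, was at 33.2, 197 and 49.1 CPM against 32.3, 11.2 and 23.4 CPM (-2.06 ± 0.70, and -1.25 ± 0.36 without both). Some hepatocyte products were low in 11_17 at the same time, with the major urinary protein list at 4362 CPM in sum against 100300 and 109600 CPM in 11_16 and 11_18, and *Cyp2e1* at 1650 CPM against 8678 and 11420 CPM. The hepatocyte identity list summed to 112700 CPM in 11_17 against 129000 and 138300 CPM, and acute phase proteins, which hepatocytes also make, were higher in it, at 24770 CPM against 18840 and 18820 CPM. The part of this mouse's liver state in the ductular, macrophage and matrix medians beyond leaving it out was not tested.

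**Figure D4:**
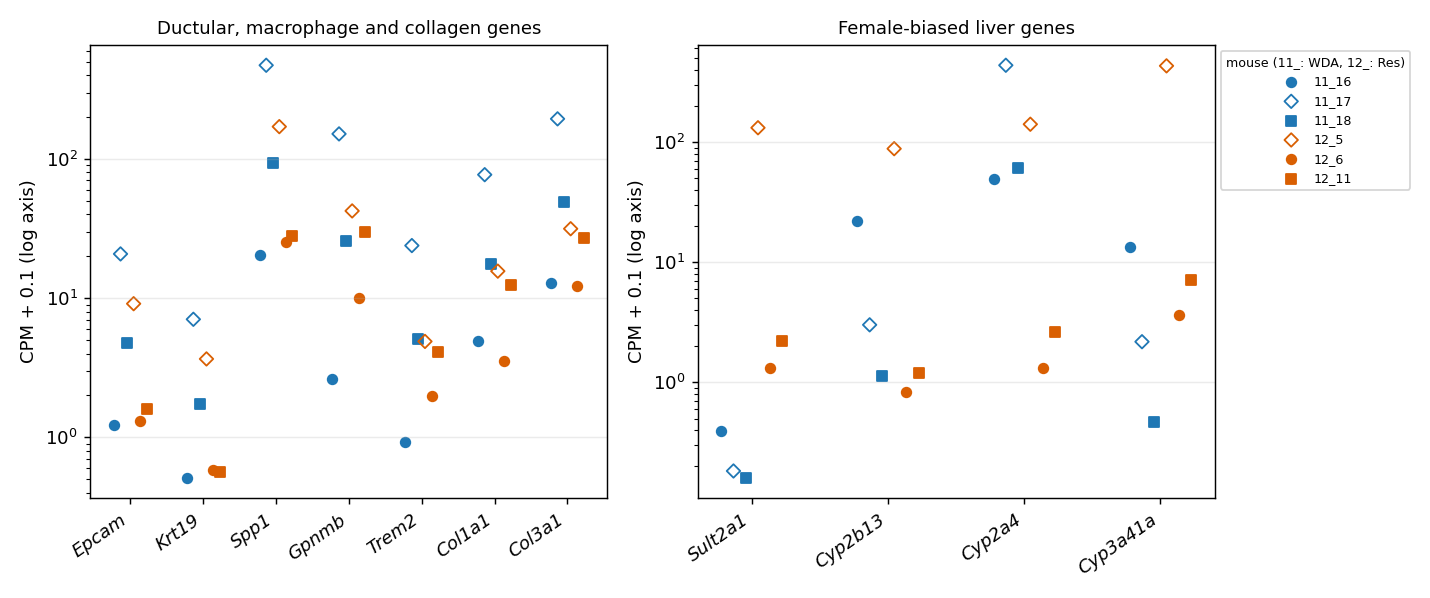
CPM plus 0.1 on a log axis in the 6 KO males for ductular, macrophage and collagen genes (left) and female-biased liver genes (right), 1 symbol per mouse. The open blue diamond, 11_17, is highest for all 7 genes on the left, and the open orange diamond, 12_5, is highest for *Sult2a1*, *Cyp2b13* and *Cyp3a41a* on the right.

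Female-biased liver genes stood apart in 12_5. For 17 such genes with at least 10 CPM in KO Res females and at least 5-fold above WT Res males, 12_5 stood at a median of 0.313 of the KO Res female mean (0.185 to 0.565), against medians of 0.00485 to 0.0237 in the other 5 KO males. *Sult2a1*, a hydroxysteroid sulfotransferase, was at 0.295, 0.0832 and 0.0609 CPM against 131, 1.21 and 2.13 CPM. *Cyp3a41a* was at 13.2, 2.08 and 0.365 CPM against 430, 3.51 and 7.02 CPM. *Cyp2b13* was at 22.0, 2.91 and 1.03 CPM against 87.9, 0.727 and 1.09 CPM. For each of these genes the Res group mean is almost wholly the value of 12_5.

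The list's median log2 fold change was 1.08 over 25 genes, with 5 higher and 0 lower at an unadjusted p under 0.05 (3.22% and 3.21% of all genes), and -0.07 without 12_5 and 11_17. *Cyp3a41a* and *Cyp2b13* went from 4.83 ± 1.96 and 1.79 ± 1.70 to -0.36 ± 1.08 and -3.64 ± 1.21. *Cyp2a4* was the one member called without the 2 libraries, at 49.3, 435 and 60.1 CPM against 140, 1.21 and 2.53 CPM, and -4.86 ± 0.33 (edgeR adjusted p 0.0105). Both outlying mice were the highest of their groups for it, and its log2 fold change with all 6 was -1.92 ± 1.62. Over 18 alternatives its adjusted p ran from 1.14e-42 to 0.9998, with 2 under 0.05. Beside this, 12_5 had the lowest Y-linked sum of the males, and the source of the female-biased transcripts in it was not tested.

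Markers of other cell types gave few differences. The shares at an unadjusted p under 0.05 over all genes were 3.22% higher and 3.21% lower. Of 20 resident Kupffer cell genes, 1 was higher and 1 lower, and the list summed to 889 to 1289 CPM in WDA mice and 970 to 1484 CPM in Res mice. Of 23 sinusoidal endothelial genes, 2 were higher, *Flt1* by 0.58 ± 0.17 and *Stab1* by 0.52 ± 0.18. On leaving out 1 library they ran from 0.44 to 0.67 and from 0.36 to 0.65. Of 14 genes of T, NK and B cells, 1 was higher, *Jchain*, the joining chain of antibodies, at 1.47, 1.54 and 0.365 CPM against 16.0, 2.06 and 6.39 CPM (2.83 ± 0.79, and 2.19 ± 0.73 without both). The lymphocyte list summed to 9.07 to 24.6 CPM in WDA and 14.4 to 45.6 CPM in Res mice, so the ranges overlapped.

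**Figure D5:**
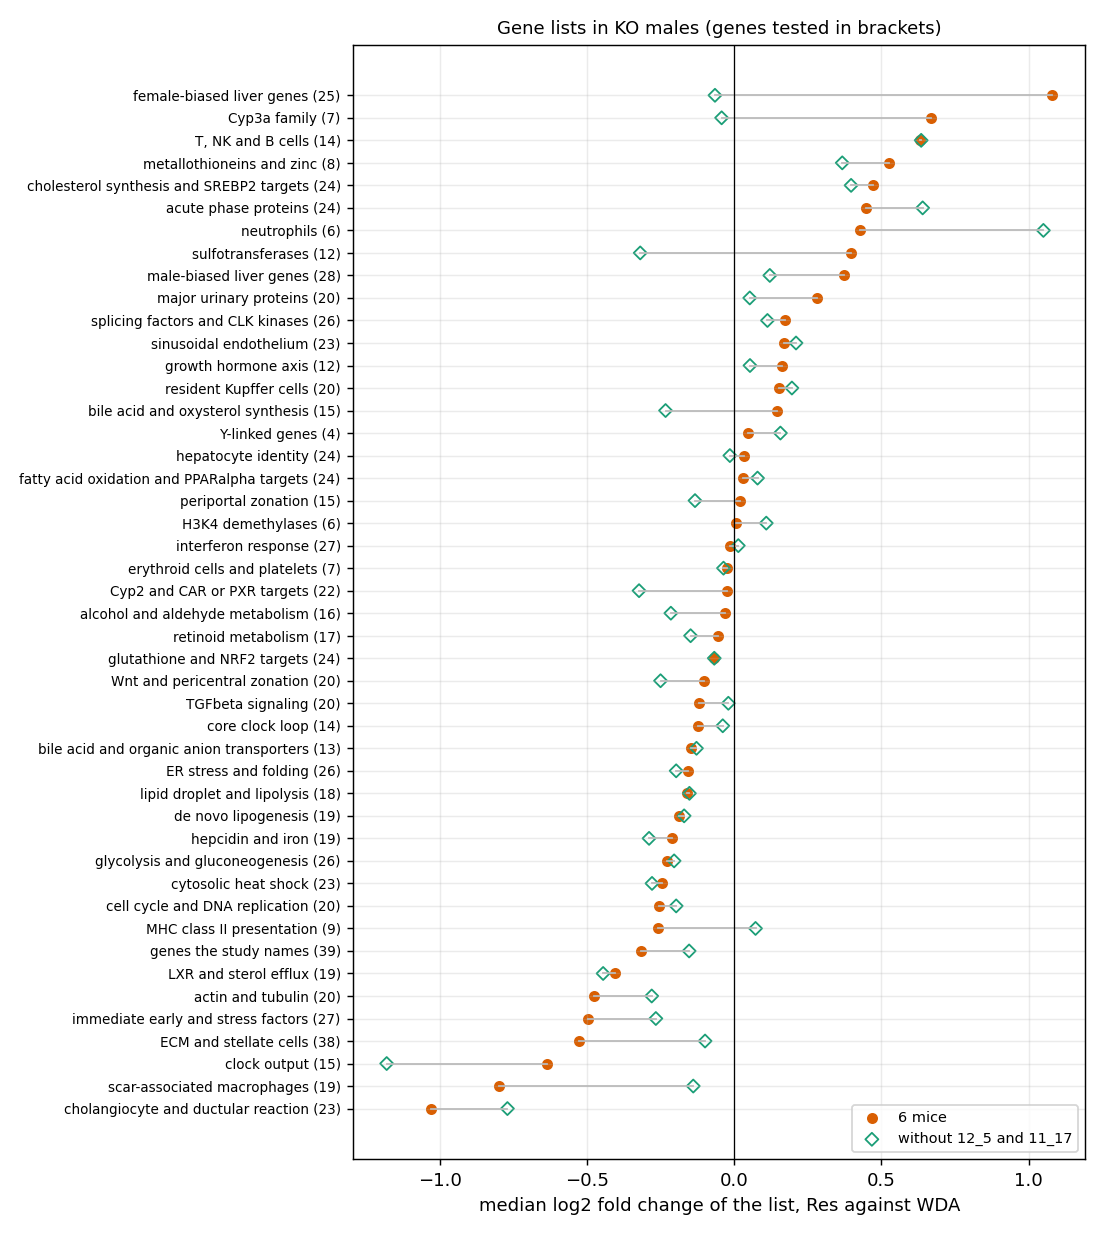
Median log2 fold change, Res against WDA, of each gene list in KO males, with 6 mice (filled) and without 12_5 and 11_17 (open). The number of genes tested is in brackets. The medians of cholesterol synthesis, LXR, acute phase and clock output genes keep their side of 0, and those of female-biased genes and sulfotransferases, among others, do not.

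WT males gave more calls from the same contrast. There edgeR called 1361 of 12408 genes (11%), 619 higher and 742 lower, and 106 to 1685 with 1 mouse left out. Of the 24 genes named first in KO males, all but *Krt23*, *Lgals1* and *Midn* were called in WT males in the same direction, with *Scara5* at 3.81 ± 0.38 (edgeR adjusted p 0.00336), *Ces1b* at 1.80 ± 0.12 (0.000626), *Scd1* at -2.74 ± 0.27 (0.00329) and *Dbp* at -4.21 ± 0.25 (0.000369). On the lists, WT males had 6 higher and 1 lower of 24 cholesterol genes, 0 higher and 9 lower of 19 LXR genes, and 7 higher and 0 lower of 24 acute phase genes called. Cytosolic heat shock was lower in 14 of 23 genes in WT males, among them *Hspa1b* at -3.77 ± 0.43 (0.00436). In KO males *Hspa1b* stood at -1.92 ± 0.64, and its interaction of stage and vector had an adjusted p of 0.932.

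The difference between KO and WT males was itself tested. Of 13107 genes, edgeR called 0 for the interaction of stage and vector (0%), with 424 at an unadjusted p under 0.05 and 1 by DESeq2, and 0 of 12944 without 12_5 and 11_17. The smallest adjusted p was 0.0896, for *Dusp6*, a phosphatase of ERK. *Dusp6* was at 33.8, 29.8 and 36.0 CPM against 32.6, 32.6 and 32.5 CPM in KO males, and its log2 fold change was -1.25 ± 0.10 in WT males. The next, *Ngfr*, the nerve growth factor receptor, differed by -1.0 ± 0.24 in KO males and 0.53 ± 0.26 in WT males (interaction adjusted p 0.932). *Slc17a1*, a phosphate and urate transporter, stood at 0.78 ± 0.19 and -0.02 ± 0.13.

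KO females gave 2550 called genes of 12470 (20.4%), and 1026 to 2292 with 1 mouse left out. Sterol genes went the same way in them, with 19 of 24 cholesterol genes higher and 1 lower, 1 of 19 LXR genes higher and 8 lower, *Scd1* at -3.65 ± 0.23 (edgeR adjusted p 0.000105) and *Idi1* at 2.30 ± 0.14 (0.000105). Acute phase genes had 1 higher and 1 lower of 24. For *Saa1* the log2 fold change was 1.17 ± 0.44 (0.0900). Of 14 core clock genes 5 were higher and 2 lower in KO females, and of 15 output genes 9 were higher and 0 lower. *Cry1* (1.08 ± 0.16, edgeR adjusted p 0.00328), *Arntl* (0.57 ± 0.10, 0.00640) and *Nfil3* (1.04 ± 0.27, 0.0247) rose in KO females and *Nr1d1* fell (-1.08 ± 0.24, 0.0146), the side of 0 on which they lay in KO males.

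*Dbp* was at 4.45, 4.67 and 4.95 CPM in WDA and 3.40, 3.60 and 5.08 CPM in Res KO females, where WDA KO males had 11.8 to 68.4 CPM. *Ciart* was at 1.20, 0.923 and 1.08 CPM against 7.14, 10.6 and 13.3 CPM (3.27 ± 0.28, edgeR adjusted p 0.000317). Levels of *Dbp* near those of the Res KO males were thus measured in KO females at both stages.

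The interaction of stage and sex among KO mice called 0 of 13036 genes with all libraries (0%), with 1030 at an unadjusted p under 0.05 and 91 by DESeq2. Without 12_5 and 11_17 it called 91 of 12939 (0.703%), 29 with a higher and 62 with a lower log2 fold change in males. Of the clock lists, 4 of 14 core genes (2 higher, 2 lower in males) and 8 of 15 output genes (all lower in males) were called. The difference for *Ciart* was -6.01 ± 0.45 (edgeR adjusted p 6.72e-05) and for *Per1* -2.77 ± 0.34 (0.00492), while *Npas2* differed by 2.70 ± 0.39 (0.0109). With all libraries these were -4.00 ± 1.01 (0.266), -2.02 ± 0.51 (0.261) and 1.84 ± 0.60 (0.401), of the same sign but not called.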

How the data were processed

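Liver RNA of 27 mice had been sequenced, 3 mice in each of 9 groups. According to the submitters' processing notes, reads were aligned with HISAT to GRCm38.p6 and with Bowtie2 to reference genes. Software versions were not given in the sources used here. The deposited tables hold the authors' estimated counts per gene, of which 7.38% were not whole, and FPKM values, which are scaled by the authors to transcript length and library size. The 2 tables of male libraries were joined on gene ID, and a gene missing from a table was set to 0 there (0 of the tested genes).

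Counts were rounded, and genes were filtered with filterByExpr at a minimum count of 10. Libraries were scaled by TMM and tested with edgeR 4.0.16 (R 4.3.3) by the quasi-likelihood F test with Benjamini-Hochberg adjustment at 0.05. SE was the size of the log2 fold change divided by the square root of F. KO males, WT males and KO females were each fitted alone, and interactions on the 4 groups they concern. DESeq2 1.42.0, limma 3.58.1 (voom quality weights, or log2(FPKM + 0.1)), other scalings and filters, a spread shared by 9 groups, and leaving out libraries were alternatives. Tests were checked on simulated counts. Named genes were the 12 lowest p in each direction under the conditions given below, up to 4 of each list, the genes the study names, and the leading genes of each interaction, and defining markers of cell types. *Bhlhe41*, *Ciart*, *Hamp2*, *Herpud1*, *Hp*, *Hsd17b7*, *Id1*, *Insig1*, *Kdm1b*, *Kdm5c*, *Lbp*, *Lpcat3*, *Npas2*, *Nr1h2*, *Nr1h3*, *Per1*, *Per3*, *Ppp1r3g* and *Tm7sf2* were chosen after their values were seen. The members and gene lists were chosen with earlier results of these data known. Summed counts of 14634602 to 19388251 per library set the counting error. Promoters came from RefSeq. Values of some single genes are not reported here. Figures were drawn with matplotlib 3.10.9.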

Additional observations from a re-analysis of the deposited data

Results flagged for a closer look

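These results differed between KO males and KO females in the edgeR interaction of stage and sex without 12_5 and 11_17. Each value is the log2 fold change of Res against WDA in males minus that in females, and none of these genes was called with all libraries. Clock genes gave differences of -4.35 for *Dbp* (edgeR adjusted p 6.63e-05, and 0.180 with all libraries), -2.73 for *Wee1* (0.00827), -3.10 for *Bhlhe40* (0.0234), -1.38 for *Nr1d2* (0.0447) and 1.25 for *Arntl* (0.0361). *Cyp2a4* differed by -4.49 (0.00244, and 0.894 with all libraries), where 11_17 and 12_5 were the highest KO males of their groups.

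*Slc30a10*, the manganese exporter, differed by 1.70 (0.00703, and 0.104 with all libraries). It was at 71.0, 64.6 and 57.7 CPM in WDA and 37.4, 43.4 and 45.4 CPM in Res KO females, the opposite order to that of KO males. *Tbx3*, a T-box repressor, differed by 2.05 (0.00492) and stood at 0.97 ± 0.17 in males without 12_5 and 11_17 and at -1.08 ± 0.16 in females. *Clpx* differed by 1.33 (0.0386).

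*Kctd21* differed by 2.43 (0.00703), *Gfod2* by 1.86 (0.0124), *Inhba*, an activin subunit, by 2.79 (0.0192), *Acnat1* by 1.73 (0.0192) and *Cldn1*, a tight junction protein, by 1.66 (0.0197). For *Kctd21*, *Acnat1* and *Cldn1* the males without 12_5 and 11_17 lay between -0.04 and 0.11 on the log2 scale and the females between -2.47 and -1.62. *Erf*, an ETS repressor, differed by -1.56 (0.0192).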

How the results depend on the processing

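Numbers of genes called in KO males, 0 in edgeR with all libraries, were 79 with DESeq2, 5 without 12_5 and 11_17, 2 without a filter, 102 with a spread shared by all 9 groups, 1 with upper quartile scaling and 41 with voom quality weights. Chosen after seeing the data, the shared spread without 12_5 and 11_17 called 63 and DESeq2 without them 179. RLE scaling, library totals, a minimum of 10 counts in every library and limma on FPKM called 0. Leaving out 1 library called 0 to 10, with 10 without 11_17 and 1 without 12_6. The interaction of stage and vector had 1 call by DESeq2. The interaction of stage and sex had 91 by DESeq2, 91 without 12_5 and 11_17 and 6 with the shared spread without them, and 0 to 12 on leaving out 1 library (12 without 12_5, 11 without 11_17 and 1 without 11_16). WT males ranged from 106 (without 11_21) to 1685 calls (without 12_9), with 203 without 11_20, 339 without 11_19 and 501 without 12_8, and KO females from 1026 (without 12_4) to 2292, with 1337 without 12_2 and 1624 without 12_3. The cause of these changes was not tested.

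Over 101 genes, 606 pairs of a gene and a left-out library held 16 turns of direction, 1203 pairs of a gene and another alternative held 26, and 88 genes kept their direction in all. Without 12_5 and 11_17 the log2 fold change turned for *Cyp3a41a* (-0.36, -0.34 with the shared spread and -0.36 with DESeq2), *Cyp2b13* (-3.64, -3.63 and -3.66), *Gpnmb* (0.50, 0.53 and 0.495), *Trem2* (0.0256, 0.0526 and 0.0203), *Mmp12* (0.78, 0.81 and 0.78) and *Inhba* (0.774, 0.80 and 0.77). *Acnat1* also turned with library totals (-0.0317) and FPKM (-0.0457). With voom quality weights it turned for *Gpnmb* (1.31), *Trem2* (0.46), *Mmp12* (0.61), *Spp1* (0.028), *Inhba* (0.33) and *Acnat1* (-0.15). On leaving out 1 library *Cyp2b13* ran from -3.23 to 3.88, *Gpnmb* from -1.68 to 0.96, *Trem2* from -2.0 to 0.30, *Spp1* from -2.88 to 0.39, *Mmp12* from -1.68 to 0.76, *Epcam* from -2.71 to 0.43, *Krt19* from -2.66 to 0.55, *Dusp6* from -0.0933 to 0.0405, *Cldn1* from -0.26 to 0.0126, *Kctd21* from -0.33 to 0.11, *Inhba* from -0.37 to 0.56 and *Acnat1* from -0.22 to 0.18. The difference of *Cyp2a4* between the sexes ran from -6.24 to 0.17, the latter without 11_17. No paired analysis was possible because the mouse numbers 5, 6 and 11 of the Res group and 16, 17 and 18 of the WDA group share none.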

Other observations

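Other gene lists gave single genes in KO males at an unadjusted p under 0.05, none of which passed edgeR's adjusted threshold. *Gys2*, liver glycogen synthase, was at 437, 156 and 405 CPM in WDA mice (11_16, 11_17, 11_18) and 127, 155 and 167 CPM in Res mice (12_5, 12_6, 12_11), where 11_17 lay within the Res range. *Pfkfb2*, which sets the level of a glycolytic activator, was at 21.8, 27 and 21.2 CPM against 57.0, 28.7 and 54.1 CPM. *Gldc*, of the glycine cleavage system, was at 159, 220 and 134 CPM against 279, 369 and 246 CPM.

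*Gsta2*, a glutathione transferase, was at 13.1, 23.9 and 20.3 CPM against 52.5, 29.8 and 31.0 CPM. Its log2 fold change was 0.98 ± 0.30, and 0.86 ± 0.24 without 12_5 and 11_17. The groups did not overlap.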
